A study of Homo sapiens with 6 samples.

Results

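The genes described here encode the subunits of coatomer, the coat of COPI vesicles. The 9 members were taken by name from the deposited count table of 58735 features: COPA, COPB1, COPB2, COPG1, COPG2, ARCN1, COPZ1, COPZ2 and COPE. They were brought together because COPZ1 was among the genes that differed most clearly between the groups, so its change in this comparison, and that of its partners, is given as a description and not as a test. COPG2 is a close relative of COPG1, and COPZ2 of COPZ1.

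COPI vesicles form on Golgi membranes and carry proteins back to the endoplasmic reticulum and between Golgi cisternae. The small GTPase ARF1, once loaded with GTP, recruits whole coatomer from the cytosol. Coatomer is a complex of 7 subunits, in which α-, β′- and ε-COP (COPA, COPB2 and COPE) make the outer, cage-like layer. Of these, α- and β′-COP bind the dilysine signals of returning cargo. The β-, γ-, δ- and ζ-COP subunits (COPB1, COPG1 or COPG2, ARCN1, and COPZ1 or COPZ2) make the inner layer, which is related to the clathrin adaptor complexes. COPZ2 has been described as low in many tumour cell lines, which leaves COPZ1 as the main source of ζ-COP there.

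By their labels, the samples were cells of the human neuroblastoma line BE(2)-C, infected with lentivirus and kept under puromycin as stable lines. In 3 libraries the virus carried a short hairpin RNA against ACSS2, the nuclear and cytosolic acetyl-CoA synthetase (shACSS2; the genotype label reads ACSS2 deficiency), and in 3 libraries a non-silencing hairpin (NS; labelled Wildtype). The titles write the knockdown as an siRNA and the treatment text names shNgBR in 1 place, and neither was resolved. No label tells if replicates came from different cultures, so a p-value reflects the spread among libraries that may be technical replicates. The labels name no second hairpin, and in bulk RNA fewer cells of a type and less RNA per cell cannot be told apart.

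Libraries held 16617885 to 20831599 counts, and 16210 genes had enough counts to be tested. ACSS2 had 75, 84 and 110 counts in the shACSS2 libraries, against 366, 387 and 438 counts in the NS libraries. Its log2 fold change was −1.94 (SE 0.145), with an adjusted p of 1.95e-06 (edgeR quasi-likelihood, Benjamini-Hochberg over all genes), and an exact two-sided permutation test gave p = 0.1, the smallest that 3 against 3 allows. Of 17 sympathoadrenal and neuroblastoma markers, 9 reached a mean of 1 CPM (counts scaled by library size). PHOX2A, TFAP2B and TH had 0 counts in all libraries, which allows up to 0.0277 CPM for 3 counts over the 6 libraries, counting error only. Counts were present but averaged below 1 CPM for DBH, DDC and STMN2. The name of the line comes from the labels, and whether the cells match it was not tested. Scaled by library totals, the summed level of the 17 markers was 167 to 197 CPM in shACSS2 and 166 to 171 CPM in NS, and their part in the results was not tested.

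Sequences of the ζ-COP genes and of the members that share a short 3′ UTR match with COPZ1 come first, because COPZ1 had the largest difference of the 8 tested members. COPZ1 (ENSG00000111481) lies on chromosome 12, 54301202 to 54351849, plus strand, in GENCODE v29 coordinates on GRCh38. Its longest annotated 3′ UTR, of 1326 bases in the form COPZ1-201, holds a 7-base sequence that earlier work on these same counts had found in many genes that were lower in shACSS2. That sequence was picked from the present fold changes, so its presence is a description only. Matches in coatomer genes are printed with their flanking bases, sense strand, 5′ to 3′, the match in capitals.
COPZ1-201, chr12:54350780-54350809, plus strand: tagactggattATGCTCAcatgctcccttg
COPG2-201, chr7:130547584-130547613, minus strand: caactcttcaaATGCTCAgtttaagaatgt
COPA-202, chr1:160289933-160289962, minus strand: tgactacagttgTGCTCAtaattgtccttg

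The search was for ATGCTCA and TGCTCAA, which overlap in the 6 bases TGCTCA, on the sense strand only. COPZ1 and COPG2 hold ATGCTCA once each, in the last exon of the form shown (exon 9 of 9 in COPZ1, exon 20 of 20 in COPG2), starting 268 and 40 bases after the stop codon. COPA holds only the 6-base core, in exon 33 of 33, and no member holds TGCTCAA. COPB1, COPB2, COPG1, ARCN1, COPZ2 and COPE hold none of these, although the ARCN1 3′ UTR is the longest of the 9 at 2214 bases. Of 13263 tested genes whose 3′ UTR reached 50 bases, ATGCTCA was in 11.2% and TGCTCA in 37.6%. The match is present in 4 of the 9 annotated coding forms of COPZ1 and in 1 of the 2 of COPG2, and which forms these cells express was not examined.

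Each ζ-COP gene also carries a microRNA gene in an intron, and these microRNAs share a seed. MIR148B lies inside COPZ1, in an intron of all 9 coding forms that span it, and MIR152 lies inside COPZ2, in an intron of its 1 coding form. The mature 3′ arms from RefSeq (GRCh38.p14) are shown 5′ to 3′ with the seed, bases 2 to 8, in capitals.
hsa-miR-148b-3p, chr12:54337278-54337299, plus strand: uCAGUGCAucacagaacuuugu
hsa-miR-152-3p, chr17:48037174-48037194, minus strand: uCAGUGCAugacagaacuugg

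Of 2370 mature microRNA names in that table, 3 have the seed CAGUGCA, these and hsa-miR-148a-3p. Both hairpin genes had 0 counts in every library, where 3 counts are 0.144 to 0.181 CPM. The libraries were made with an mRNA kit, so these zeros do not bear on the mature microRNAs.

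**Figure D1:**
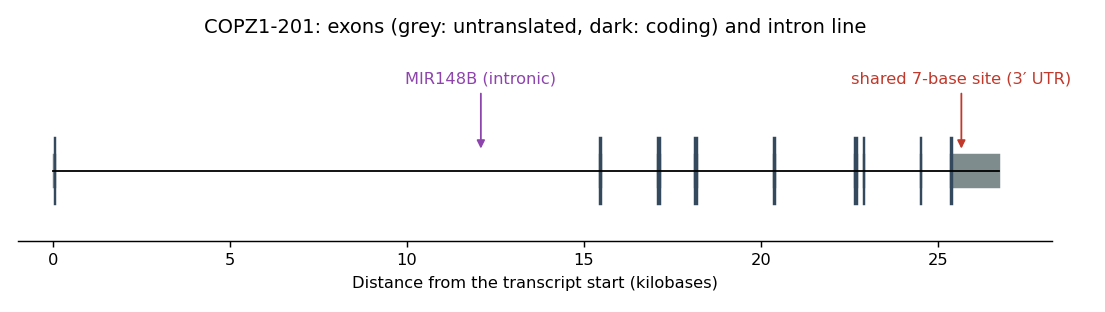
The exons of COPZ1-201 along the gene, in kilobases from the transcript start, with coding parts dark and untranslated parts grey. MIR148B sits in the first intron and the 7-base ATGCTCA match in the 3′ UTR of the last exon.

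ζ1-COP is a small subunit of the inner coat layer that binds γ-COP. COPZ1 had 1998, 2231 and 2575 counts in the shACSS2 libraries, against 5238, 5818 and 6417 counts in the NS libraries. In composition-normalised (TMM) CPM these were 124, 136 and 144 in shACSS2 and 298, 307 and 296 in NS. All shACSS2 libraries were below all NS libraries, with a gap wider than the range of either group. The means were 135 ± 9.98 CPM in shACSS2 and 300.5 ± 6.09 CPM in NS (SD, n = 3 each), a log2 fold change of −1.15 (SE 0.0932) and a fitted fold of 0.449. It ranked 43 from the lowest log2 fold change of the 11895 genes that averaged 5 CPM or more. Over the 14 alternative settings its log2 fold change ran from −1.23 to −1.10.

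COPZ2 encodes ζ2-COP, which can take the place of ζ1-COP. It lies on chromosome 17, 48026167 to 48038030, minus strand. It had 0, 6 and 3 counts in shACSS2 and 4, 1 and 2 counts in NS, and was the only member that did not pass the filter on low counts. The groups overlap, and 3 counts are 0.144 to 0.181 CPM in these libraries, so no difference could be detected at this depth. As a share of the reads of both ζ genes, COPZ2 held 0.128 ± 0.134% in shACSS2 and 0.0415 ± 0.0309% in NS (SD, n = 3 each). The highest library, shACSS2 replicate 2, had 0.268% (exact binomial 95% interval 0.0985 to 0.583%, counting error only). Summed per kilobase, the level of both ζ genes was 71.4 ± 5.38 CPM per kilobase in shACSS2 and 158.5 ± 3.16 in NS, nearly all of it COPZ1. The coding sequences of the pair align over 506 bases at 71.5% identity, and no other annotated transcript aligned to COPZ1 over at least 100 bases at 70% identity or more.

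Of the 8 members tested, 1 passed the edgeR test at an adjusted p of 0.05, COPZ1, and it was lower. Over all genes 9.64% were called lower and 17.1% were called in either direction. The choice of members used this comparison, and nothing is read from the count. The count was 2, with COPA added, when shACSS2 replicate 1 was left out, with library totals in place of TMM, and with DESeq2. In 2 of the 8, COPZ1 and COPA, all shACSS2 libraries were below all NS libraries, as in 18.7% of all tested genes. In the other 6 the groups overlapped, and over all tested genes 17.6% were separated with shACSS2 higher and 36.3% in either direction. The median log2 fold change of the 8 was 0.00, as was that of all tested genes.

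**Figure D2:**
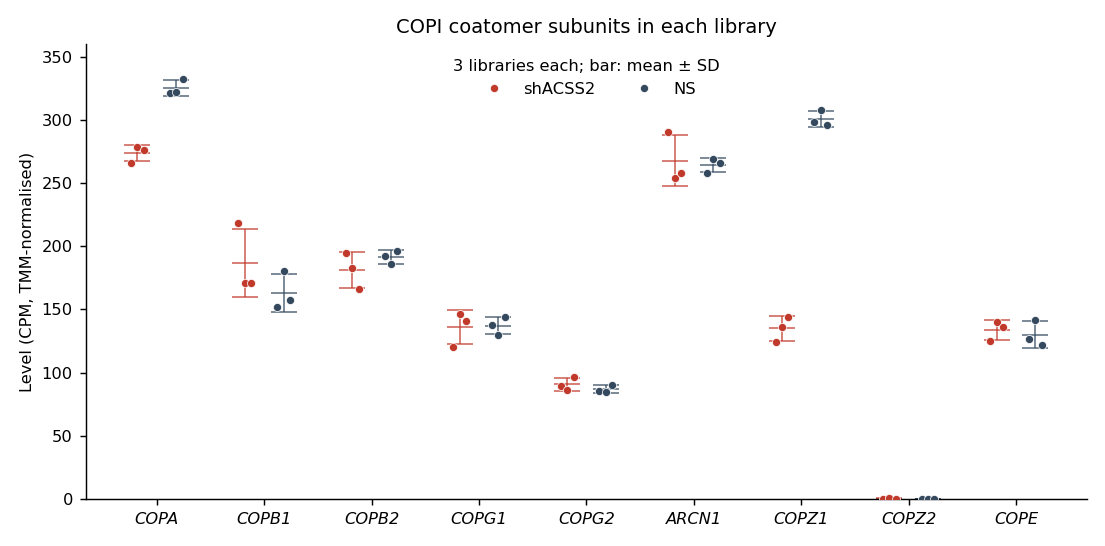
TMM-normalised CPM of each coatomer gene in each library, with shACSS2 libraries in red to the left of NS libraries in dark blue, and bars at the mean ± SD of 3 libraries. COPZ1 is at 124 to 144 CPM in shACSS2 and 296 to 307 CPM in NS, COPA shows a narrower gap, and the groups overlap in the other members.

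In the outer layer the groups were separated in COPA and overlapped in COPB2 and COPE. α-COP, its largest subunit, recognises dilysine signals, and COPA lies on chromosome 1, 160288686 to 160343400, minus strand. COPA stood at 266, 278 and 276 CPM in shACSS2 and at 321, 322 and 332.5 CPM in NS. The groups did not overlap, and the difference was far smaller than that of COPZ1, with a log2 fold change of −0.25 (SE 0.0867). It was −0.23 without shACSS2 replicate 1, −0.32 with library totals and −0.24 with DESeq2, the settings that put it past the threshold. COPA shares 129 exonic bases with NCSTN, a γ-secretase subunit on the opposite strand, and whether the counting used strand is not stated. NCSTN itself stood at 87.1 ± 5.24 CPM in shACSS2 and 105 ± 3.8 CPM in NS (SD, n = 3 each), and the log2 fold change was −0.28 ± 0.0937 (SE), at an edgeR adjusted p of 0.0534. All annotated exons of COPA hold 7723 bases. How reads in the shared bases were counted is not stated, and their part in either difference was not tested.

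COPB2 encodes β′-COP, the other propeller-bearing subunit of the cage (chromosome 3, 139355600 to 139389732, minus strand). It stood at 194.8, 182.8 and 166.5 CPM in shACSS2 and at 192.5, 185.9 and 196.5 CPM in NS. The groups overlapped, with the lowest library in shACSS2, and the log2 fold change was −0.08 (SE 0.0934). COPE encodes ε-COP, which stabilises α-COP (chromosome 19, 18899514 to 18919397, minus strand). It stood at 125, 140 and 136 CPM in shACSS2 and at 126, 142 and 122 CPM in NS. Its log2 fold change was 0.04 (SE 0.0973), which was −0.03 with library totals. COPB2 shares 86 exonic bases with MRPS22 on the opposite strand.

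In the inner layer the groups overlapped in every tested member other than COPZ1. γ-COP binds ζ-COP and cargo receptors of the p24 family, and it comes from COPG1 (chromosome 3, 129249606 to 129277773, plus strand) or COPG2 (chromosome 7, 130506238 to 130668748, minus strand). COPG1 stood at 121, 146 and 141 CPM in shACSS2 and at 138, 130 and 144 CPM in NS, a log2 fold change of −0.01 (SE 0.0995). COPG2 stood at 89.6, 85.9 and 96.3 CPM in shACSS2 and at 85.5, 84.4 and 90.3 CPM in NS, a log2 fold change of 0.06 (SE 0.0939). The groups overlapped in both genes, and the sign of each turned under other settings, to 0.07 for COPG1 without shACSS2 replicate 1, to 0.02 for COPG1 without NS replicate 3 and to −0.01 for COPG2 with library totals. COPG2 and COPZ1 hold the same 7-base match printed above, in 1 of 2 and 4 of 9 annotated coding forms. Their log2 fold changes were 0.06 (SE 0.0939) and −1.15 (SE 0.0932), with no test of that difference. Which forms these cells express was not examined.

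The reads of the γ genes were split much alike in the groups, within the spread of the shACSS2 libraries. COPG2 held 42.6, 37.0 and 40.7% of the γ reads in shACSS2 and 38.3, 39.4 and 38.6% in NS. The means were 40.1 ± 2.85% in shACSS2 and 38.8 ± 0.592% in NS (SD, n = 3 each), and the shACSS2 libraries lay on both sides of the NS range. Their coding sequences are 73.0% identical over 2636 aligned bases. COPG2 also overlaps MEST on the opposite strand by 228 exonic bases, but MEST had at most 5 counts in any library.

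β-COP and δ-COP complete the inner layer, and both genes had 1 library that stood apart. COPB1 (chromosome 11, 14443440 to 14500027, minus strand) stood at 218, 171 and 171 CPM in shACSS2 and at 152, 180 and 158 CPM in NS. Its log2 fold change was 0.19 (SE 0.112), and 0.07 without shACSS2 replicate 1, the high library. ARCN1, the gene of δ-COP (chromosome 11, 118572390 to 118603033, plus strand), stood at 291, 254 and 258 CPM in shACSS2 and at 258, 269 and 266 CPM in NS. Its log2 fold change was 0.02 (SE 0.0915), and −0.04 without the same library. The groups overlapped in both genes.

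**Figure D3:**
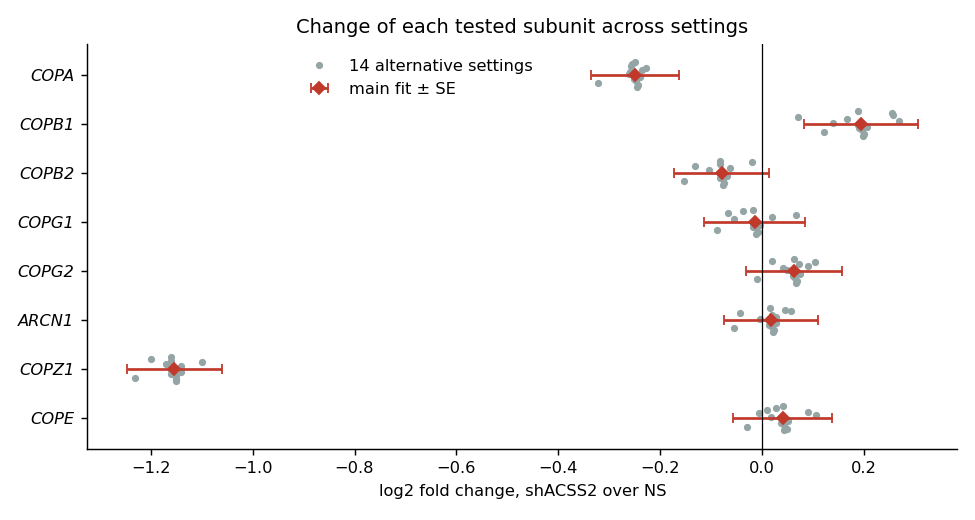
Log2 fold change of shACSS2 over NS for the 8 tested coatomer genes, as red diamonds with their SE, and under each of 14 alternative settings as grey points. COPZ1 stays between −1.23 and −1.10, COPA between −0.32 and −0.23, and the points of COPG1, COPG2, ARCN1 and COPE fall on both sides of 0.

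shACSS2 replicate 1 stood apart from shACSS2 replicates 2 and 3 in a way that followed base composition. Across 13430 tested genes with a coding transcript, the log2 level in this library minus the mean of shACSS2 replicates 2 and 3 had a Spearman coefficient of −0.704 with the GC content of the transcript. Genes of one library are not independent, and this is a description. The NS libraries also differed among themselves, and they were not set against GC content. Chi-square per degree of freedom was 8.37, 6.82 and 15.8 between NS replicates 1 and 2, 1 and 3, and 2 and 3. In shACSS2 it was 17.3, 16.8 and 4.28 in the same order. COPB1, at 40.8% GC the lowest of the 8 tested members, was 0.35 higher on the log2 scale in shACSS2 replicate 1. ARCN1 and COPB2, both at 43.6% GC, were 0.18 and 0.16 higher. COPG2, at 42.1% GC the second lowest, stood at −0.0213, under the lower quartile of 0.0522 for genes of 40 to 45% GC. COPA, at 48.2% GC, stood at −0.0595. COPG1, at 52.6% GC, was 0.25 lower and COPE, at 62.9%, was 0.15 lower. COPZ1, at 47.6% GC, was 0.17 lower, which is small beside its difference between the groups, and without that library its log2 fold change was −1.10. The part of this library in the smaller differences of COPB1 and COPG1 was not tested beyond leaving it out.

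**Figure D4:**
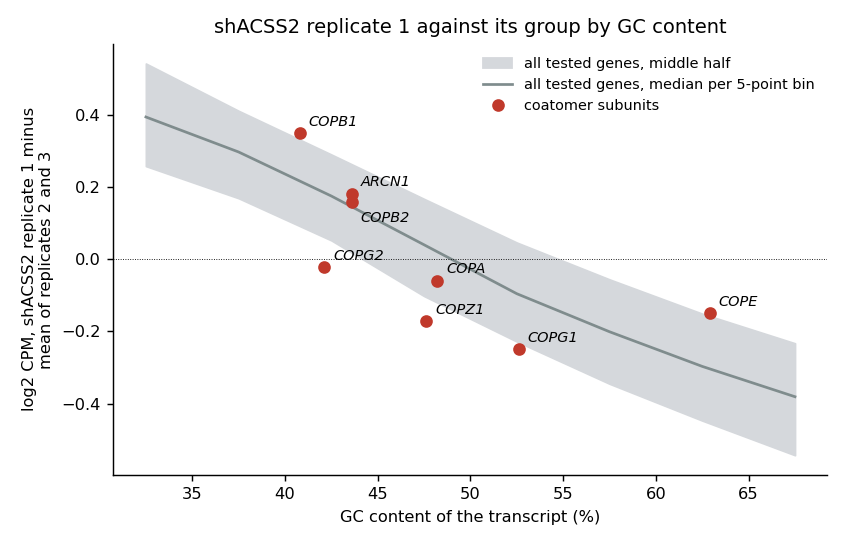
Log2 CPM in shACSS2 replicate 1 minus the mean of shACSS2 replicates 2 and 3, against the GC content of the transcript in percent, for the 8 tested coatomer genes (red points). The line is the median and the band the interquartile range of all tested genes in bins of 5 points of GC, and the line falls with GC. ARCN1, COPB2 and COPA lie within the quartiles of their bin, COPB1 (0.349) and COPE (−0.149) lie above them, and COPG2 (−0.0213), COPZ1 (−0.172) and COPG1 (−0.248) lie below.

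Per kilobase, COPZ1 was the most abundant coatomer transcript in the NS libraries and second in the shACSS2 libraries. These levels divide TMM CPM by the length of the form with the longest 3′ UTR. COPZ1 stood at 71.2 ± 5.26 CPM per kilobase in shACSS2 and 158 ± 3.21 in NS, and COPE at 117 ± 7.08 in shACSS2 and 114 ± 9.2 in NS (SD, n = 3 each, here and below). COPA stood at 58.6 ± 1.4 in shACSS2 and 69.7 ± 1.37 in NS, and ARCN1 at 66.3 ± 4.96 in shACSS2 and 65.5 ± 1.38 in NS. COPB2 stood at 54.0 ± 4.23 in shACSS2 and 57.0 ± 1.6 in NS, and COPB1 at 53.6 ± 7.79 in shACSS2 and 46.9 ± 4.32 in NS. COPG1 stood at 44.1 ± 4.36 in shACSS2 and 44.6 ± 2.26 in NS, COPG2 at 29.5 ± 1.73 in shACSS2 and 28.2 ± 1.01 in NS, and COPZ2 at 0.199 ± 0.205 in shACSS2 and 0.139 ± 0.103 in NS.

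In the NS order the libraries of COPB1 and COPG1 overlapped, and the other neighbours did not. In shACSS2 the libraries of COPZ1 and ARCN1 overlapped, as did those of COPA and COPB2 and those of COPB2 and COPB1, and the other neighbours did not. Summed over both genes, γ-COP stood at 73.6 ± 4.62 CPM per kilobase in shACSS2 and 72.8 ± 3.2 in NS. With these lengths COPZ1 therefore stood well above the γ sum in NS and overlapped it in shACSS2. Divided by all annotated exons instead, COPZ1 stayed first in NS and had rank 5 in shACSS2, and ARCN1 and COPE came next in NS, so ranks between genes depend on the length used.

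The share of COPZ1 in the summed coatomer transcript level does not depend on the scaling of the libraries, but it does depend on the lengths used. Of the summed per-kilobase level of the 9 genes, COPZ1 took 13.3, 14.5 and 15.4% in shACSS2 and 27.4, 27.1 and 26.9% in NS. COPE, which had the largest share in shACSS2 and the second largest in NS, took 23.7 ± 1.34% in shACSS2 and 19.5 ± 1.19% in NS. The level of COPE itself had a log2 fold change of 0.04 (SE 0.0973). Against the geometric mean of the other 7 tested members, the COPZ1 level per kilobase stood at 0.35 ± 0.125 on the log2 scale in shACSS2 and 1.50 ± 0.0277 in NS, a difference of −1.15. The ratio of COPZ1 to COPG1 counts was 1.03, 0.934 and 1.03 in shACSS2 and 2.16, 2.37 and 2.06 in NS. The groups did not overlap in either ratio. The summed CPM of the members without COPZ1 was 1269 ± 30.9 in shACSS2 and 1298 ± 21.5 in NS, and the groups overlapped.

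The genes whose levels over the 6 libraries were most like those of COPZ1 were AC091182.1, HMGB2, SARM1, FAM98A and DCTD. Likeness was the root mean square distance between mean-centred log2 CPM values, which was 0.0428, 0.065, 0.0833, 0.0879 and 0.0921 in that order, against a median of 0.603 over the 11894 genes compared, all averaging 5 CPM or more. HMGB2, a high mobility group protein of chromatin, stood at 94.9 ± 2.85 CPM in shACSS2 and 200 ± 3.95 CPM in NS, and FAM98A at 38.4 ± 2.32 CPM in shACSS2 and 84.7 ± 2.6 CPM in NS. SARM1, an NAD-cleaving enzyme of axons, FAM98A and DCTD, a deoxycytidylate deaminase, held ATGCTCA or TGCTCAA in their longest 3′ UTR. HMGB2 did not, and AC091182.1 is noncoding and has no 3′ UTR to search. Of the 13263 tested genes searched, 18% held ATGCTCA or TGCTCAA. These genes were chosen for likeness to COPZ1, which was lower in shACSS2, and the sequence was picked from these fold changes. The matches are therefore a description only.

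The other genes of COPI transport were taken from lists written by function, with earlier results of these data known. The first holds the ARF GTPases, the exchange factors that load them and the GAPs that discharge them. Of 11 tested, 1 rose and 1 fell, with the other 9 short of the threshold, beside 7.48% of all genes called higher and 9.64% called lower, and the median log2 fold change was −0.11. ARF1, which recruits coatomer, rose to 912 ± 38.6 CPM in shACSS2, against 702 ± 20 CPM in NS (SD, n = 3 each), and the log2 fold change was 0.38 ± 0.0874 (SE), at an edgeR adjusted p of 0.00918. ARF3, its near relative, fell to 133 ± 9.75 CPM in shACSS2, against 203 ± 5.55 CPM in NS (log2 fold change −0.61 ± 0.0932, SE; adjusted p by edgeR 0.000588). ARF1 missed the threshold without NS replicate 1, at 0.36 (edgeR adjusted p = 0.0726), and the list then had 1 call. GBF1, the exchange factor that loads ARF proteins for COPI, had a log2 fold change of −0.16 (SE 0.0958).

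Among cargo receptors and retrieval proteins, 4 of 21 rose and 2 fell, 15 were short of the threshold, and the median log2 fold change was 0.11. That is 28.6% called, beside 17.1% of all genes (7.48% higher and 9.64% lower). TMED10, a p24 protein that binds coatomer through its cytosolic tail, fell to 159 ± 11.4 CPM in shACSS2, against 289 ± 8.65 CPM in NS (SD, n = 3 each), and the log2 fold change was −0.87 ± 0.0927 (SE), at an edgeR adjusted p of 3.9e-05. TMED4, another p24 protein, fell to 104 ± 4.51 CPM in shACSS2, against 137 ± 1.9 CPM in NS (log2 fold change −0.39 ± 0.0903, SE; adjusted p by edgeR 0.00893). ERGIC2 rose to 89.2 ± 19.1 CPM in shACSS2, against 59.9 ± 4.24 CPM in NS (log2 fold change 0.57 ± 0.13, SE; adjusted p by edgeR 0.00798), and KDELR3, a receptor that returns KDEL-bearing proteins to the endoplasmic reticulum, rose by a log2 fold change of 0.44 (SE 0.112; adjusted p by edgeR 0.0155). KDELR1 and KDELR2, its more abundant relatives, stood at −0.03 (SE 0.0897) and 0.12 (SE 0.0947) on the log2 fold change scale. Without NS replicate 1 the list had 1 call, TMED10, and TMED4, ERGIC2 and KDELR3 stood at −0.40, 0.53 and 0.41 (edgeR adjusted p = 0.0523, 0.0566 and 0.0938). Without NS replicate 3 it had 3 calls, and KDELR3 stood at 0.36 (edgeR adjusted p = 0.098).

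For tethers and SNAREs of COPI vesicles, 0 of 31 rose and 2 fell, 29 were short of the threshold, and the median log2 fold change was 0.09. The share called was 6.45%, all of it lower, beside 17.1% of all genes (7.48% higher and 9.64% lower). GOLGB1, the Golgi tether giantin, fell to 45.1 ± 1.78 CPM in shACSS2, against 81.2 ± 11.9 CPM in NS (SD, n = 3 each), and the log2 fold change was −0.85 ± 0.114 (SE), at an edgeR adjusted p of 0.000228. GOSR1, a Golgi SNARE, fell to 37.3 ± 4.53 CPM in shACSS2, against 55.6 ± 3.83 CPM in NS (log2 fold change −0.58 ± 0.113, SE; adjusted p by edgeR 0.00344). The subunits of the tether that docks COPI vesicles at the endoplasmic reticulum, NBAS, RINT1 and ZW10, were short of the threshold. On the log2 fold change scale NBAS stood at 0.23 (SE 0.0942), RINT1 at 0.18 (SE 0.121) and ZW10 at 0.02 (SE 0.0995). The list had 5 calls without shACSS2 replicate 1, 2 of them higher.

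The COPII coat carries cargo out of the endoplasmic reticulum. Of 16 tested genes, 0 rose and 3 fell, 13 were short of the threshold, and the median log2 fold change was −0.09. The share called was 18.8%, all of it lower, beside 17.1% of all genes (7.48% higher and 9.64% lower). SEC23A, an inner coat subunit, fell to 69.9 ± 11.8 CPM in shACSS2, against 163 ± 9.64 CPM in NS (SD, n = 3 each), and the log2 fold change was −1.22 ± 0.116 (SE), at an edgeR adjusted p of 1.56e-05. Its relative SEC23B had a log2 fold change of −0.06 (SE 0.0969). SEC31B fell by 0.82 on the log2 scale (SE 0.176; adjusted p by edgeR 0.00595), at 5.97 ± 0.487 CPM in shACSS2 and 10.5 ± 2.15 CPM in NS (SD, n = 3 each), and SAR1B, the GTPase that starts the coat, fell by 0.51 (SE 0.129; adjusted p by edgeR 0.0138). Without NS replicate 1 the list had 1 call, and SEC31B and SAR1B stood at −0.67 and −0.49 (edgeR adjusted p = 0.0521 and 0.0711). SAR1B also missed the threshold without NS replicate 2, shACSS2 replicate 2 or shACSS2 replicate 3 (edgeR adjusted p = 0.0568, 0.0514 and 0.0565). The list had 5 calls without shACSS2 replicate 1.

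The clathrin adaptors are the relatives of the inner COPI layer, and their small σ subunits are related to ζ-COP. Of 31 tested clathrin and adaptor genes, 5 rose and 3 fell, 23 were short of the threshold, and the median log2 fold change was 0.13. These are 25.8% called, where all genes gave 17.1% (7.48% higher and 9.64% lower). AP1S1, a small subunit of AP-1, rose by 0.51 on the log2 scale (SE 0.0951; edgeR adjusted p = 0.00239). AP1S3, another, rose by 0.65 (SE 0.129; edgeR adjusted p = 0.00377). AP3B2, the neuronal β subunit of AP-3, fell to 6.11 ± 0.843 CPM in shACSS2, against 17.5 ± 1.92 CPM in NS (SD, n = 3 each), and the log2 fold change was −1.51 ± 0.155 (SE), at an edgeR adjusted p of 2.68e-05. AP1G2, a γ subunit of AP-1, fell by 0.63 (SE 0.145; adjusted p by edgeR 0.00886), and stood at −0.51 without NS replicate 3 (edgeR adjusted p = 0.0651). The count of 8 calls was 4 when NS replicate 1, NS replicate 3 or else shACSS2 replicate 2 was left out, 5 without shACSS2 replicate 3 and 15 without shACSS2 replicate 1.

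In the retromer and retriever list, which holds coats of endosomes, 1 of 10 rose and 0 fell, 9 were short of the threshold, with a median log2 fold change of −0.01. The share called was 10.0%, beside 17.1% of all genes (7.48% higher and 9.64% lower). SNX5, a retromer-associated sorting nexin, rose to 287 ± 2.02 CPM in shACSS2, against 229 ± 4.63 CPM in NS (SD, n = 3 each), and the log2 fold change was 0.33 ± 0.0863 (SE), at an edgeR adjusted p of 0.0169. Leaving out NS replicate 1 gave 0.31 (edgeR adjusted p = 0.114), NS replicate 3 gave 0.34 (edgeR adjusted p = 0.0614) and shACSS2 replicate 3 gave 0.33 (edgeR adjusted p = 0.0586), and each left 0 calls. Without shACSS2 replicate 1 there were 3 calls. Over all 6 lists, 7 of the 11 genes that fell held ATGCTCA or TGCTCAA in their longest 3′ UTR, as did 1 of the 11 that rose and 19 of the 98 that did not pass, beside 18% of the 13263 tested genes searched. SEC23A, TMED10, ARF3, GOSR1, SAR1B, AP3B2 and CLTC are the 7, and since the sequence was picked from these fold changes the counts are a description.

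**Figure D5:**
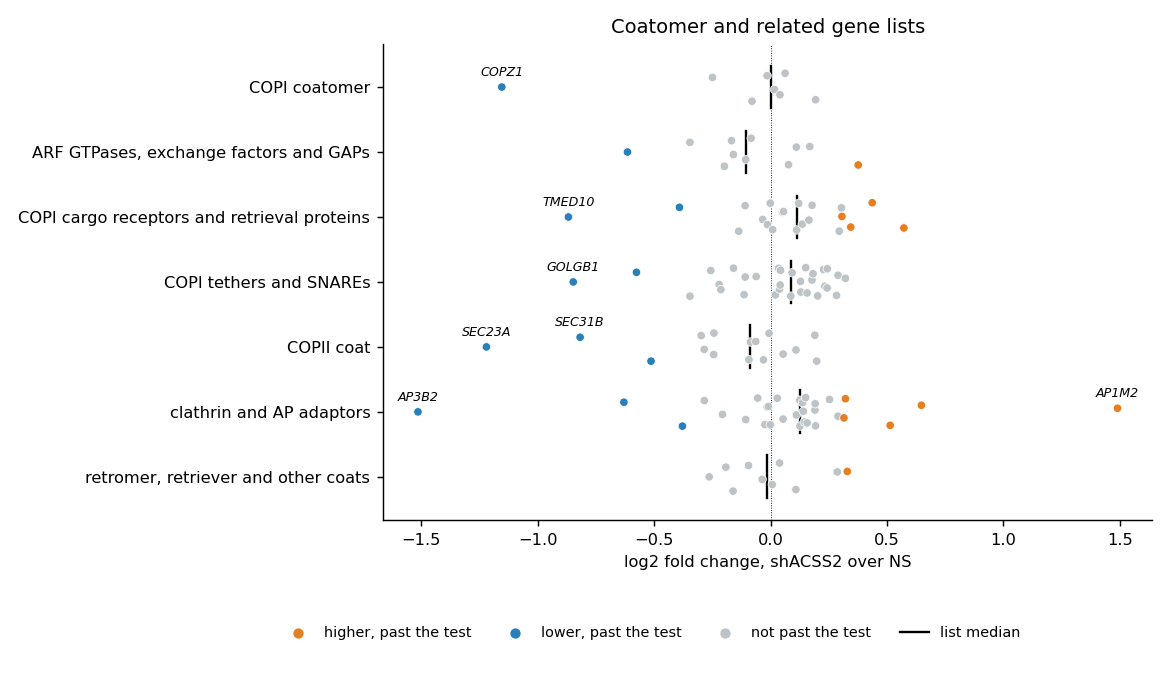
Log2 fold change of shACSS2 over NS for every tested gene of the coatomer list and 6 related lists, 1 row per list, with genes past the edgeR test in blue (lower) or orange (higher) and list medians as black bars. The medians lie between −0.11 and 0.13, and single genes such as COPZ1, TMED10, GOLGB1, SEC23A and AP3B2 stand far to the left. AP1M2 stands far to the right at 1.49, with low levels of 1.32 CPM in shACSS2 and 0.464 CPM in NS.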

How the data were processed

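Deposited values are raw read counts per gene. Per the submitters' processing notes, the reads passed through fastp, HISAT2 (2.0.5) and featureCounts (1.5.0-p3), hg19 is the build, and DESeq2 is listed as 4.3.1. How strand and multiply matching reads were handled is not given. All 58735 identifiers were found in GENCODE v29, an annotation of GRCh38, so the build of the alignment is unknown, and printed coordinates are GENCODE v29 or RefSeq positions on GRCh38.

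Tests across genes used edgeR 4.0.16 (R 4.3.3; TMM factors, default filter by group, robust quasi-likelihood fit with group as the only term), with Benjamini-Hochberg adjustment over 16210 genes at 0.05, and the pipeline was tested on simulated data. SE was computed as log2 fold change divided by the root of the F statistic. Library totals were 16617885 to 20831599 counts. Chi-square per degree of freedom between libraries of a group was 4.28 to 17.3, more than counting error alone gives. Each library was counted as a replicate, but such an excess does not tell separate cultures from technical replicates. CPM per kilobase used the transcript with the longest 3′ UTR, and coding sequences were aligned with BLAST 2.17.0. Python 3.11.15 was used for summaries.

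Members and lists were chosen with earlier results of these data known. Named genes are the members, ACSS2, the 5 nearest profiles to COPZ1, genes overlapping members, and up to 4 called genes per list averaging 1 CPM or more, by size of change. KDELR1, KDELR2, SEC23B, GBF1, CLTC and the NBAS, RINT1 and ZW10 group were named after their values were seen. Alternatives were other scalings, filters and tools (DESeq2 1.42.0, voom of limma 3.58.1), an adjusted p of 0.01, each library left out and the replicate block. GC content and length were not corrected for. Some markers and 1 sequence are not reported here.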

Additional observations from a re-analysis of the deposited data

How the results depend on the processing

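COPZ1 and ACSS2 kept their direction and their call in every alternative run, with log2 fold changes of −1.23 to −1.10 and −2.06 to −1.85. Since COPZ1 was picked from this comparison and the runs reuse the same libraries, its kept call is a description only. Of 32 single genes followed, 8 lost a call in at least 1 alternative, 2 gained one (COPA and NCSTN) and 4 turned sign, none of them called. With library totals COPG2, ARCN1 and COPE stood at −0.0101, −0.0557 and −0.0304, and the median of all genes moved by −0.07. When 1 library was left out, COPG1 ran from −0.0674 to 0.0657, ARCN1 from −0.0439 to 0.0563 and COPE from −0.00639 to 0.105. The number of genes called was 2776, with 1010 at an adjusted p of 0.01 and 1018 to 3931 when 1 library was left out. Of the genes called, 43.7% were higher, and 25.8% with library totals.

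Coatomer genes called numbered 1, with 2 under library totals, 2 with DESeq2 and 1 to 2 when 1 library was left out. Leaving out 1 library gave 1 to 3 calls for ARF genes, 1 to 7 for cargo receptors, 2 to 5 for tethers, 1 to 5 for COPII, 4 to 15 for adaptors and 0 to 3 for retromer. Library totals gave 5 calls for COPII and 2 for retromer, and DESeq2 gave 2 for retromer. At an adjusted p of 0.01 there were 3 calls for cargo receptors, 4 for adaptors and 0 for retromer. The highest coatomer level per kilobase in NS was 5.61 times the lowest of the 8 tested members, and 3.68 times over all annotated exons, which was added after seeing the data.

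Same-numbered libraries of the groups had correlations of −0.0428, −0.0664 and 0.112 in their deviations across genes. Libraries of different numbers ran from −0.123 to 0.158. No pairing by number was seen, but with 3 libraries per group these values cannot exclude it. With the replicate block 2923 genes were called, COPZ1 stood at −1.16 and the coatomer count stayed at 1. For COPZ2, with at most 6 counts in a library, depth limits any comparison.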
